A study of Mus musculus with 8 samples.

Results

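A family of 9 enzymes named as 17-beta hydroxysteroid dehydrogenases were followed in the livers of mice that lacked the melanocortin 1 receptor (MC1R) in hepatocytes. The 9 genes (Hsd17b6, Hsd17b2, Hsd17b7, Hsd17b4, Hsd17b8, Hsd17b10, Hsd17b11, Hsd17b12 and Hsd17b13) were selected by name out of 55487 genes listed per liver. Hsd17b6 was chosen for its difference between these same 8 livers, so its values are given as a description with no test. The other 8 were listed because they share the family name, and the question was whether Hsd17b6 moved alone.

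Each liver came from a male mouse given a cholesterol-rich Western diet for 12 weeks, from 8 to 20 weeks of age, and fasted briefly before collection. The 4 Mc1r LKO mice (numbers 141, 156, 157 and 182) carried floxed Mc1r alleles (Mc1r fl/fl) together with Alb-Cre, a recombinase transgene driven by the albumin promoter of hepatocytes. The 4 control mice (154, 159, 181 and 193) were age-matched Mc1r fl/fl animals, so the floxed alleles were common to both genotypes, and, as the controls carried no Cre, the transgene and the loss of Mc1r cannot be told apart. Polyadenylated RNA of whole liver was sequenced and read pairs were counted per gene.

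Enzymes of this name add or remove hydrogen at the hydroxyl or keto group of a substrate, using a nicotinamide cofactor. Some of them switch sex steroids between active and inactive forms at carbon 17, whereas others work mainly on fatty acyl chains, sterols, retinoids or branched-chain amino acids. The liver is a main site of steroid clearance, and several of these enzymes sit in its peroxisomes, mitochondria, endoplasmic reticulum or lipid droplets.

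The sequence in front of Hsd17b6 is shown because the gene is the one the comparison turned on. RefSeq promoter windows were found for 7 of the 9 genes, and none was found for Hsd17b2 and Hsd17b4. The 250 bases before the annotated transcript start of Hsd17b6 lie at chr10:128007612-128007861 of GRCm38.p6 on the minus strand and are written 5′ to 3′ in the direction of transcription. Capitals mark CCAAT, a sequence bound by the NF-Y factor, on either strand (ATTGG is CCAAT read on the opposite strand).
Hsd17b6: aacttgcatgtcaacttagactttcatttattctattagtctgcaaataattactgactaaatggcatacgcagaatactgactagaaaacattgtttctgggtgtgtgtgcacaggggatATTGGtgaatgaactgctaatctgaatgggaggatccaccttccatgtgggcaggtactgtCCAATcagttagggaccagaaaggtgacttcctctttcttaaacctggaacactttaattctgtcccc
CCAAT occurred 2 times in this window, and it was held by 6 of the 7 windows of the family and by 33.8% of all 32851 promoter windows of that length. None of the other motifs searched on both strands was in the Hsd17b6 window. They were TATAAA (12.4% of all windows), the STAT core TTCNNNGAA (7.02%), the nuclear receptor half-site AGGTCA (14%) and the palindrome of the glucocorticoid and androgen receptors (0.00913%). AGGTCA was in the window of Hsd17b13. A match describes the letters of a window and does not show that a factor binds there.

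Between 10773151 and 23161380 read pairs were counted on genes in control livers and between 14196138 and 24763375 in Mc1r LKO livers. All 9 family members passed the filter on low counts, which kept 13400 genes in all. Mc1r itself had 0 counts in all 8 mice, where 3 counts would be 0.121 to 0.279 CPM (read pairs relative to the size of the library), so the genotype labels could not be checked on the target. The hepatocyte markers Alb, Apoa1, Ttr, Apob, Serpina1c, Cps1, Tat and Pck1 together reached 74490 to 91522 CPM in control and 81286 to 108819 CPM in Mc1r LKO livers. Mc1r LKO mouse 182 stood apart from its group: the chi-square per degree of freedom of its counts against the other Mc1r LKO mice, a measure that also grows with depth, was 54.6 to 90.3, against 11.6 to 23.9 among the other 3. Between control mice this measure was 22.9 to 40.1. Values without mouse 182, an alternative in part chosen after seeing the data, are given beside results that it moved. In edgeR's quasi-likelihood test, 901 of 13400 genes (6.72%) passed an unadjusted p under 0.05 and 0 (0%) passed after Benjamini-Hochberg adjustment over all genes tested (smallest adjusted p = 0.118). DESeq2 called 17 genes after adjustment and limma-voom 0.

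Hsd17b6 (ENSMUSG00000025396) encodes a dehydrogenase of the retinol dehydrogenase type that oxidises androgen metabolites. It lies on chromosome 10 of GRCm38 from 127990936 to 128007611 on the minus strand, and no exon base is shared with another gene of that strand. In CPM scaled by trimmed mean of M-values (TMM) normalization, Hsd17b6 was at 56.5, 96.3, 76.5 and 155 in control mice 154, 159, 181 and 193. The corresponding levels were 48.7, 41.0, 52.0 and 32.4 CPM in Mc1r LKO mice 141, 156, 157 and 182. The lowest control was above the highest Mc1r LKO mouse by 4.53 CPM, so the genotypes did not overlap, and control mouse 193 was the highest of all.

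These levels rested on 1063, 1036, 1469 and 3806 counts in the control mice and on 705, 631, 1287 and 635 counts in the Mc1r LKO mice. The means were 96.1 ± 42.6 CPM in control and 43.5 ± 8.72 CPM in Mc1r LKO livers (SD, n = 4 each), so that the Mc1r LKO mean was 45.3% of the control mean. The fitted log2 fold change was -1.14 with a standard error of 0.28. The spread was wide among the controls, with a coefficient of variation of 44.3% against 20% among the Mc1r LKO mice, and the highest control held 2.75 times the level of the lowest. Without control mouse 193, the control mean was 76.5 ± 19.9 CPM (SD, n = 3), 1.76 times the Mc1r LKO mean, and the log2 fold change was -0.80 with a standard error of 0.20. Without Mc1r LKO mouse 182 the log2 fold change was -1.02.

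**Figure D1:**
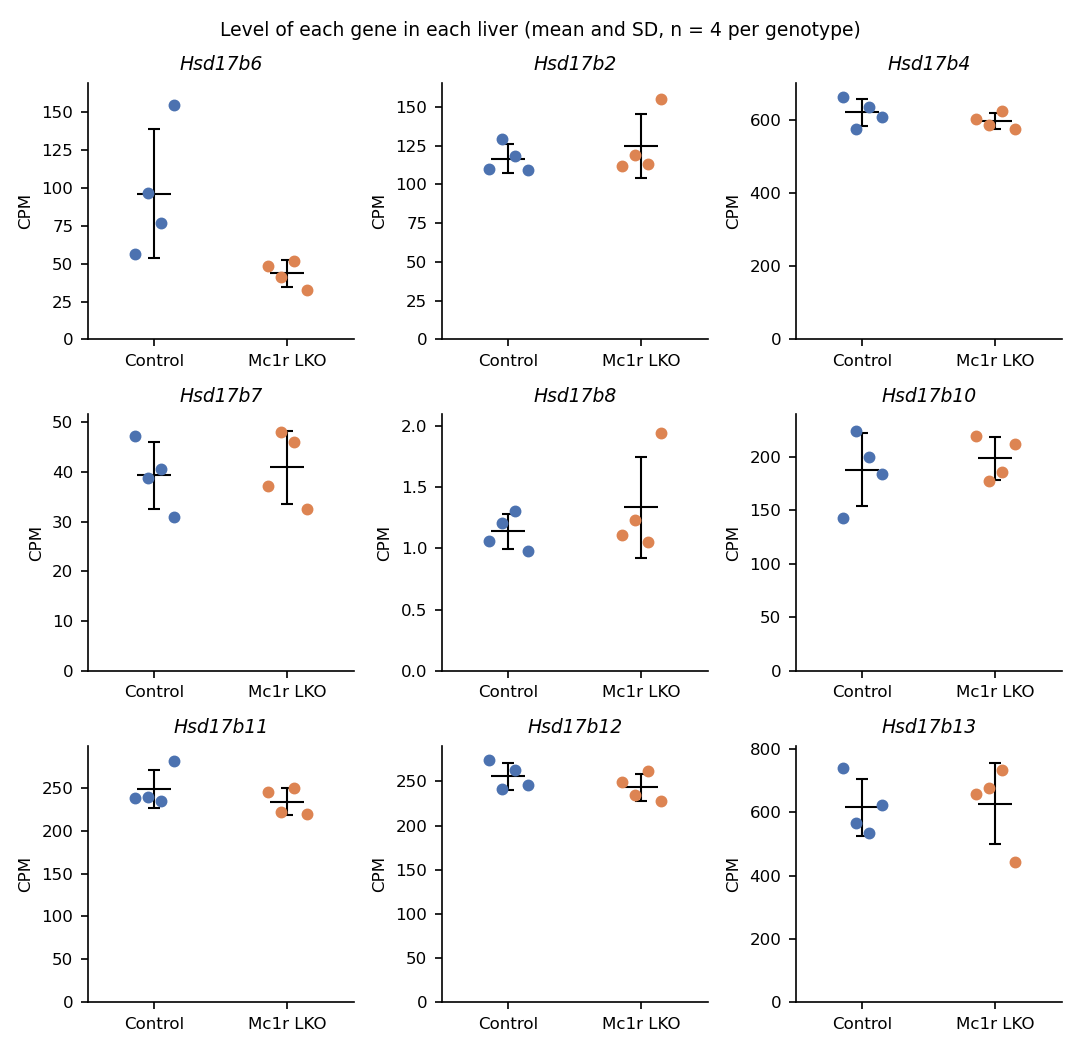
Level of each of the 9 enzymes in CPM (TMM-normalized, each vertical axis from 0) by genotype, with 1 point per mouse and the mean and SD of 4 mice. The Hsd17b6 points of the control mice (56.5 to 155) all lie above those of the Mc1r LKO mice (32.4 to 52.0), and in each of the other 8 panels the points of the genotypes overlap.

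Markers of other liver cells were read beside this difference. The Kupffer cell markers Clec4f, Vsig4, Timd4, Cd5l, Adgre1 and Marco were all tested, 0 of 6 were higher in Mc1r LKO livers and 0 passed an unadjusted p under 0.05, with a median log2 fold change of -0.42 and a summed level of 226 to 514 CPM in control and 158 to 332 CPM in Mc1r LKO livers. Of 6 sinusoidal endothelial markers, 2 were higher and 0 passed, with sums of 215 to 255 and 165 to 242 CPM. The 6 stellate cell markers summed to 317 to 477 and 324 to 464 CPM, the 5 bile duct markers to 59.4 to 150 and 29.7 to 255 CPM, and the 6 lymphocyte markers to 1.62 to 6.51 and 1.23 to 2.71 CPM. Among the 5 markers of gonad, adrenal and adipose tissue, where steroids are also made or handled, Cyp11a1 was at 0 counts in all mice and the sums were 12.1 to 34.1 and 26.5 to 39.4 CPM. Of 8 hepatocyte markers 7 were higher in Mc1r LKO livers and 1, Tat, passed the unadjusted threshold, which 6.72% of all genes tested passed. The part of these cell types in the Hsd17b6 difference was not tested, and in whole liver fewer cells of a type and less RNA per cell cannot be told apart.

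The other 8 family members showed no difference between the genotypes that passed a test. By edgeR, 0 of the 8 passed an unadjusted p under 0.05, against 6.72% of all genes tested, and 0 passed after adjustment, where their adjusted p-values ran from 0.907 to 0.988. DESeq2 and limma-voom also called 0 of the 8 at either threshold. Of the 8, 5 were higher and 3 lower in Mc1r LKO livers, with a median log2 fold change of 0.043 beside -0.011 over all genes tested. Without mouse 182, 3 were higher and 5 lower. In none of them were the genotypes separated, against 4.16% of all genes tested and 1 of the 9 members when Hsd17b6 is counted. A missing call does not show equal levels, so the 95% interval of each change is given with it. The lowest bound of these 8 intervals was -0.44, and the log2 fold change of Hsd17b6 was -1.14. Whether its change differed from that of each other member was not tested, because Hsd17b6 was chosen for it.

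**Figure D2:**
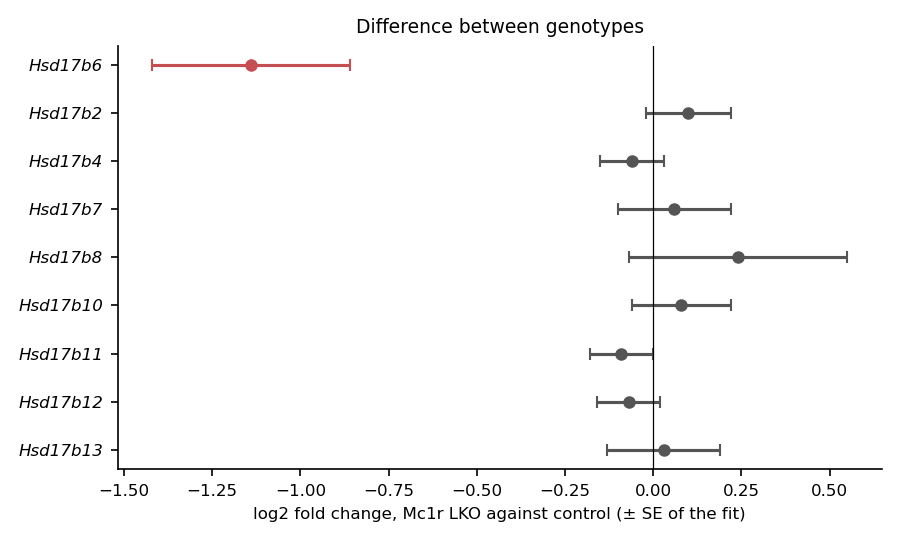
Log2 fold change of each enzyme, Mc1r LKO against control, with bars of 1 standard error of the edgeR fit (4 mice per genotype). Hsd17b6 (red) is at -1.14, and the other 8 (grey) lie between -0.09 and 0.24.

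Hsd17b2 (ENSMUSG00000031844) oxidises oestradiol and testosterone to their less active keto forms. It was at 110, 129, 118 and 109 CPM in control mice 154, 159, 181 and 193 and at 112, 119, 113 and 155 CPM in Mc1r LKO mice 141, 156, 157 and 182. Mouse 182 was high and the other 7 livers lay in one narrow band. The log2 fold change was 0.10 (95% interval -0.16 to 0.36, adjusted p = 0.915 by edgeR), and it was -0.02 without mouse 182. The gene lies on chromosome 8, as Mc1r does, and the 2 are 5.65 Mb apart.

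Hsd17b7 (ENSMUSG00000026675) reduces a 3-keto sterol in cholesterol synthesis and can also act on oestrone. Its levels were 47.2, 38.7, 40.5 and 30.9 CPM in the control mice and 37.1, 48.0, 45.9 and 32.5 CPM in the Mc1r LKO mice, in the same order of mice. The ranges of both genotypes nearly coincided. The log2 fold change of Hsd17b7 was 0.06 (95% interval -0.29 to 0.40, edgeR adjusted p = 0.965), and it was 0.16 without mouse 182.

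Hsd17b4 (ENSMUSG00000024507), on chromosome 18, is the bifunctional protein of peroxisomal beta-oxidation, which carries out both the hydration and the dehydrogenation of very long and branched acyl chains. It was at 664, 575, 636 and 610 CPM in control livers and at 603, 588, 626 and 575 CPM in Mc1r LKO livers. The coefficient of variation of 3.64% among the Mc1r LKO mice and 6.12% among the controls was small, and the groups overlapped. With a log2 fold change of -0.06 (95% interval -0.24 to 0.13, edgeR adjusted p = 0.933), the interval reached from 0.84-fold to 1.1-fold.

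Hsd17b10 (ENSMUSG00000025260), on chromosome X, serves in mitochondria in isoleucine breakdown and as a subunit of the RNase P that trims mitochondrial transfer RNA. Control livers had 143, 224, 200 and 184 CPM and Mc1r LKO livers 219, 177, 186 and 212 CPM. Control mice 154 and 159 were the lowest and the highest of all 8, so the Mc1r LKO values fell within the control range. The log2 fold change of Hsd17b10 was 0.08 (95% interval -0.23 to 0.39, edgeR adjusted p = 0.939).

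Hsd17b8 (ENSMUSG00000073422, carried in the tables under the symbol H2-Ke6) is a subunit of the ketoacyl reductase of mitochondrial fatty acid synthesis. It was counted at 20, 13, 25 and 24 read pairs in the control mice and 16, 19, 26 and 38 in the Mc1r LKO mice, or 0.978 to 1.94 CPM. Of its 1643 exon bases on chromosome 17, 1419 (86.4%) are also exon of Gm20427 on the same strand, and the counting as run leaves out reads that fit both genes, so these counts are a lower limit of its level. The log2 fold change was 0.24 with a wide 95% interval of -0.44 to 0.92 (edgeR adjusted p = 0.92), or 0.73-fold to 1.89-fold, and it was -2.6e-03 without mouse 182. No exon bases of the other 8 members are shared in this way, and without Hsd17b8 the intervals of the other 7 tested members stayed within -0.33 to 0.40, or 0.79-fold to 1.32-fold.

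Hsd17b12 (ENSMUSG00000027195) is the ketoacyl reductase of the fatty acid elongation cycle in the endoplasmic reticulum. Its levels were 274, 241, 263 and 246 CPM in control and 249, 235, 262 and 228 CPM in Mc1r LKO livers. The genotypes overlapped over most of their range. The log2 fold change of Hsd17b12 was -0.07 (95% interval -0.26 to 0.12, edgeR adjusted p = 0.917).

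Hsd17b11 (ENSMUSG00000029311) and Hsd17b13 (ENSMUSG00000034528) are both lipid droplet enzymes, and they lie 12.4 kb apart on the minus strand of chromosome 5. Hsd17b11 was at 238, 239, 234 and 281 CPM in control livers and at 245, 221, 250 and 219 CPM in Mc1r LKO livers. Control mouse 193, the one with the most Hsd17b6, was also the highest in Hsd17b11, and the other 3 controls lay within a few CPM of each other. The Hsd17b11 difference was -0.09 in log2 (95% interval -0.30 to 0.12, edgeR adjusted p = 0.907), and it was -0.02 without control mouse 193. Hsd17b13, known from human genetics of fatty liver disease, was at 739, 568, 536 and 623 CPM in control and at 659, 677, 734 and 443 CPM in Mc1r LKO livers. Mouse 182 was the lowest of all 8 and the remaining Mc1r LKO mice lay within the control range. Hsd17b13 differed by 0.03 in log2 (95% interval -0.33 to 0.39, edgeR adjusted p = 0.988), and by 0.17 without mouse 182.

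Levels were compared between the enzymes only per length, as CPM per kb of exons averaged over the 8 mice. Hsd17b13 was the highest at 288 ± 47.3 CPM per kb (SD, n = 8), followed by Hsd17b4 at 179 ± 9.19, Hsd17b10 at 149 ± 20.5 and Hsd17b12 at 104 ± 6.41. Hsd17b11 followed at 73.8 ± 5.93, Hsd17b2 at 62.6 ± 7.88, Hsd17b6 at 44.3 ± 25.4, Hsd17b7 at 7.86 ± 1.28 and Hsd17b8 at 0.752 ± 0.186. The mice of Hsd17b13 and Hsd17b4 did not overlap, nor did those of Hsd17b12 and Hsd17b11, or of Hsd17b6 and Hsd17b7. The ranges of Hsd17b4 and Hsd17b10, of Hsd17b10 and Hsd17b12, of Hsd17b11 and Hsd17b2 and of Hsd17b2 and Hsd17b6 did overlap. Within the controls, the mean was 61 ± 27 CPM per kb for Hsd17b6 (35.9 to 98.5) and 60.5 ± 4.75 for Hsd17b2 (56.5 to 66.9). The nearness of these means rested on control mouse 193, the highest in Hsd17b6. Without it the control mean of Hsd17b6 fell from 96.1 to 76.5 CPM. Within the Mc1r LKO mice Hsd17b6 was at 27.6 ± 5.53 and Hsd17b2 at 64.7 ± 10.5 with no overlap (SD, n = 4 each). The place of Hsd17b8 rests on its full exon length, while most of that length yields no counts. Over its 224 unshared exon bases its level was 4.37 to 8.67 CPM per kb, which overlaps the 6.05 to 9.41 of Hsd17b7.

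Levels were also summed over the family. The 9 genes came to 1898 to 2273 CPM per liver, and the 8 genes other than Hsd17b6 to 1866 to 2216 CPM. Hsd17b6 made up 3.83% to 10.3% of the summed level per kb in control livers and 2.55% to 3.46% in Mc1r LKO livers. Divided by the longest coding sequence of each gene, Hsd17b10 moved from place 3 to place 5 and Hsd17b11 from place 5 to place 3, while the other 7 kept their places.

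**Figure D3:**
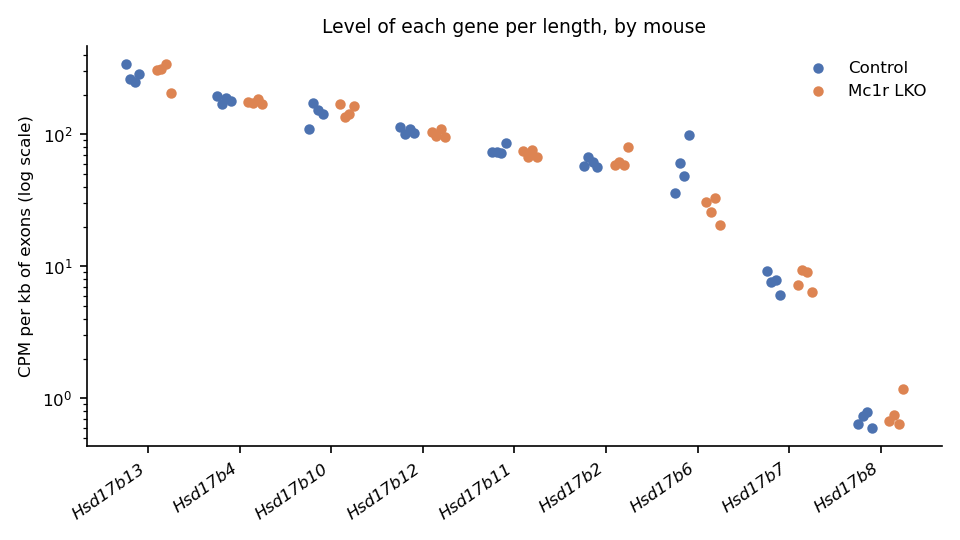
Level of each enzyme in CPM per kb of exons (log axis) in each mouse, ordered by the mean of 8 mice. Hsd17b13 is at the top with a mean of 288, Hsd17b8 at the bottom with 0.752 (over all exon bases, most of which are shared with another gene), and Hsd17b6 spans 20.6 to 98.5, the widest range in relation to its mean.

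Across the 8 livers, pairs of family members varied together to different degrees, described here by Pearson's r of log2 CPM over mice that share library depth, liver composition and genotype as common sources. Hsd17b6 had r between -0.58 (with Hsd17b8) and 0.80 (with Hsd17b11), and the r with Hsd17b11 was 0.52 without control mouse 193. The highest r among the 36 pairs was 0.95, reached by Hsd17b4 with Hsd17b12 and by Hsd17b2 with Hsd17b8. Without mouse 182 the first stayed at 0.95 and the second was 0.74. Hsd17b13 had an r of -0.84 with Hsd17b2, or -0.57 without mouse 182, and of 0.37 with its neighbour Hsd17b11, or -1.1e-03 without it. Over the same 7 mice Hsd17b6 had an r of -0.30 with Hsd17b8, 0.74 with Hsd17b11 and -0.81 with Hsd17b7. The r with Hsd17b7 was -0.36 over all 8 mice and 0.15 without control mouse 193, so its sign depended on the mice kept.

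Further genes of the family name or of its substrates were tested as well. Hsd17b1, which makes oestradiol in the ovary, Hsd17b3, which makes testosterone in the testis, and Hsd17b14 had at most 12, 3 and 1 counts in any mouse and did not pass the filter. Akr1c6, the mouse enzyme also known as 17-beta hydroxysteroid dehydrogenase type 5, was at 680 to 856 CPM in control and 676 to 1029 CPM in Mc1r LKO livers (log2 fold change 0.01, 95% interval -0.31 to 0.33, edgeR adjusted p = 0.993), and the log2 fold change was -0.14 without mouse 182, its highest liver. Cbr4, the partner of Hsd17b8 in mitochondrial fatty acid synthesis, was at 26.2 to 33.1 CPM in control and 32.4 to 37.7 CPM in Mc1r LKO livers (log2 fold change 0.20, 95% interval -0.02 to 0.42, edgeR adjusted p = 0.771), and it passed the unadjusted threshold without mouse 182. The genotypes of both genes overlapped.

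Hsd17b6 lies in a cluster of related short-chain dehydrogenases, most of which act on retinol or steroids. Of 8 listed genes of this cluster 5 were tested, and 0 passed an unadjusted p under 0.05. With all 8 mice the 5 were higher in Mc1r LKO livers, but without mouse 182 3 were higher and 2 lower, and again 0 passed. Without control mouse 159, 1 of the 5 passed, when 921 of all genes did. Without mice 159 and 182 together 1 also passed, when 1375 of all genes did. Rdh7 was the most abundant, at 903 to 1063 CPM in control and 946 to 1252 CPM in Mc1r LKO livers, with a log2 fold change of 0.10 (95% interval -0.16 to 0.35, edgeR adjusted p = 0.914) that was -3.0e-03 without mouse 182. Rdh16 differed by 0.08 (95% interval -0.54 to 0.71), Sdr9c7 by 0.06 (-0.48 to 0.60) and Rdh9 by 0.01 (-0.50 to 0.51) on the log2 scale, and without mouse 182 the values were 0.32, -0.21 and 0.16. Rdh16f2 had the widest interval, -0.31 to 1.25 around 0.47, with 12.3 to 27.1 CPM in control and 15.8 to 40.7 CPM in Mc1r LKO livers. Mouse 182 held the 40.7 CPM, and without it the log2 fold change of Rdh16f2 was 0.04. These genes are close paralogs, and 64.1% of the exon bases of Rdh9 and 6.13% of those of Rdh16 are shared with another gene of the same strand, so their counts are uncertain. Rdh1 had at most 14 counts and Rdh19 at most 1, and Rdh16f1, all of whose exon bases are shared with Rdh1 or Rdh9, had 0, so they were not tested.

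Within 200 kb of Hsd17b6 on chromosome 10, 26 genes were listed and 13 were tested. Of these 13, 2 passed an unadjusted p under 0.05 and the same 2 had genotypes that did not overlap, in opposite directions, beside 6.72% of all tested genes for the first count and 4.16% for the second. Baz2a, a subunit of a chromatin complex that silences ribosomal RNA genes, was at 34.1, 41.6, 38.2 and 36.0 CPM in control and 28.3, 29.8, 27.5 and 31.7 CPM in Mc1r LKO livers (log2 fold change -0.35, standard error 0.09, edgeR adjusted p = 0.734). Naca, a chaperone of nascent chains, was at 142, 155, 139 and 131 CPM in control and 171, 175, 161 and 165 CPM in Mc1r LKO livers (log2 fold change 0.25, standard error 0.08, edgeR adjusted p = 0.734). Both kept their call at the unadjusted threshold when each mouse was left out in turn, and neither passed after adjustment. The nearest tested gene, Prim1, lies 7.56 kb away and had 1.29 to 3.18 CPM with a log2 fold change of -0.11 (95% interval -0.80 to 0.58). Ptges3, Atp5b, Rbms2 and Gls2 differed by 0.11, 0.05, -0.03 and 0.14 on the log2 scale, and the median over the 13 tested genes was 0.061. A gene known only as ENSMUSG00000118550 had the lowest value, -0.57 (95% interval -1.87 to 0.73), from at most 62 counts.

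The pathways in which these enzymes work were read from lists of 160 genes, of which 143 were tested. In all, 6 of the 143 (4.2%) passed an unadjusted p under 0.05, 5 higher and 1 lower in Mc1r LKO livers, against 6.72% of all genes tested, and 0 passed after adjustment. The count depended on 1 library: without Mc1r LKO mouse 182, 18 of 144 genes (12.5%) passed, 10 higher and 8 lower, against 8.01% of the 13674 genes then tested, and again 0 passed after adjustment. By DESeq2 8 of the listed genes passed the unadjusted threshold, and by limma-voom 7. The median log2 fold change over the lists was 0.0092.

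Among 25 tested enzymes that handle steroids by other reactions, 4 (16%, against 6.72% of all genes tested) passed an unadjusted p under 0.05, all of them aldo-keto reductases of the Akr1c cluster, which reduce or oxidise steroids and bile acid precursors. Not all Akr1c genes passed: Akr1c20, named after its value was seen, was at 0.11 on the log2 scale and Akr1c6 at 0.01. Akr1c12 was at 39.9, 51.7, 45.5 and 50.0 CPM in control and 62.2, 51.9, 61.6 and 65.3 CPM in Mc1r LKO livers. Its genotypes were separated by a narrow gap, and the log2 fold change was 0.37 with a standard error of 0.11 (edgeR adjusted p = 0.734). Akr1c19 was at 20.2, 29.7, 19.6 and 21.6 CPM in control and 46.0, 23.4, 31.8 and 37.6 CPM in Mc1r LKO livers. It overlapped between the genotypes, with a log2 fold change of 0.61 and a standard error of 0.20 (edgeR adjusted p = 0.734).

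Akr1c13 was higher (log2 fold change 0.20, standard error 0.09) and Akr1c14 lower (-0.21, standard error 0.09) in Mc1r LKO livers at the unadjusted threshold, with edgeR adjusted p-values of 0.735 and 0.740. Both calls were fragile. Akr1c13 kept it in 2 of 8 fits that left out a mouse, losing it without control mouse 159, 181 or 193 or Mc1r LKO mouse 141, 157 or 182, with log2 fold changes from 0.15 to 0.25 over all alternatives. Akr1c14 also kept it in 2 of 8, losing it without control mouse 154, 159 or 181 or Mc1r LKO mouse 141, 156 or 157, with values from -0.27 to -0.17. These paralogs are alike in sequence and reads common to them may be lost or split. The other 21 steroid-handling enzymes tested included the ends of the range, Ugt2b38 at -0.73 and Hsd3b5 at 1.78, which did not pass and are named here after their values were seen. Without mouse 182, 7 of the 25 passed (28%, against 8.01% of all genes, with 3 higher and 4 lower), among them Akr1c12, Akr1c14 and Akr1c19.

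Of 22 genes of cholesterol synthesis, the pathway of Hsd17b7, 16 were higher and 6 lower, with a median log2 fold change of 0.089. Of the 22, 1 (4.55%, against 6.72% of all genes tested) passed an unadjusted p under 0.05. It was Tm7sf2, a sterol reductase, at 62.6, 59.8, 53.4 and 42.3 CPM in control and 66.5, 79.2, 73.7 and 61.7 CPM in Mc1r LKO livers. The genotypes overlapped slightly, with a log2 fold change of 0.37 and a standard error of 0.13 (edgeR adjusted p = 0.734), and the call was lost without Mc1r LKO mouse 156. Without mouse 182, 4 of the 22 passed (18.2%, against 8.01% of all genes), all higher, namely Tm7sf2 and, named after their values were seen, Fdps, Msmo1 and Pmvk.

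In the lipid droplet list, which holds the partners of Hsd17b11 and Hsd17b13, 7 of 18 tested genes were higher and 11 lower. Of the 18, 1 (5.56%, against 6.72% of all genes tested) passed an unadjusted p under 0.05, namely Plin5. Plin5, a droplet coat protein that ties droplets to mitochondria, was at 74.4, 65.5, 62.5 and 58.8 CPM in control and 79.8, 86.0, 75.3 and 71.2 CPM in Mc1r LKO livers. The lowest Mc1r LKO mouse was below the highest control (log2 fold change 0.26, standard error 0.10, edgeR adjusted p = 0.734), and the call was lost without control mouse 181 or 193 or Mc1r LKO mouse 156. Cidea was at the lower end of this list with a log2 fold change of -1.73, and, named after its value was seen, it did not pass with all 8 mice. Without mouse 182, 3 of the 18 passed (16.7%, against 8.01% of all genes), Plin5 higher and Cidea and Mgll lower.

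By edgeR with all 8 mice, none of the remaining lists held a gene past the unadjusted threshold. They were peroxisomal beta-oxidation around Hsd17b4 (19 tested, -0.20 to 0.09 on the log2 scale), mitochondrial fatty acid synthesis around Hsd17b8 (9 tested, -0.07 to 0.20) and the RNase P and isoleucine genes around Hsd17b10 (11 tested, -0.13 to 0.18). Fatty acid elongation around Hsd17b12 had 14 genes tested, from -0.22 to 0.33. Retinol handling, in which Hsd17b2, Hsd17b6 and Hsd17b13 are placed for their activity on retinoids or their kinship to retinol dehydrogenases, had 19 genes tested, from -0.23 to 0.56. In the first 3 of these lists and in retinol handling 1 gene each passed without mouse 182 (Crot, Cbr4, Acadsb and Cyp26a1, named after their values were seen), and in elongation 0 did. By DESeq2 with all 8 mice, 1 gene of peroxisomal beta-oxidation and 1 of retinol handling passed the unadjusted threshold. With library size alone as the scaling, 2 peroxisomal genes did.

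**Figure D4:**
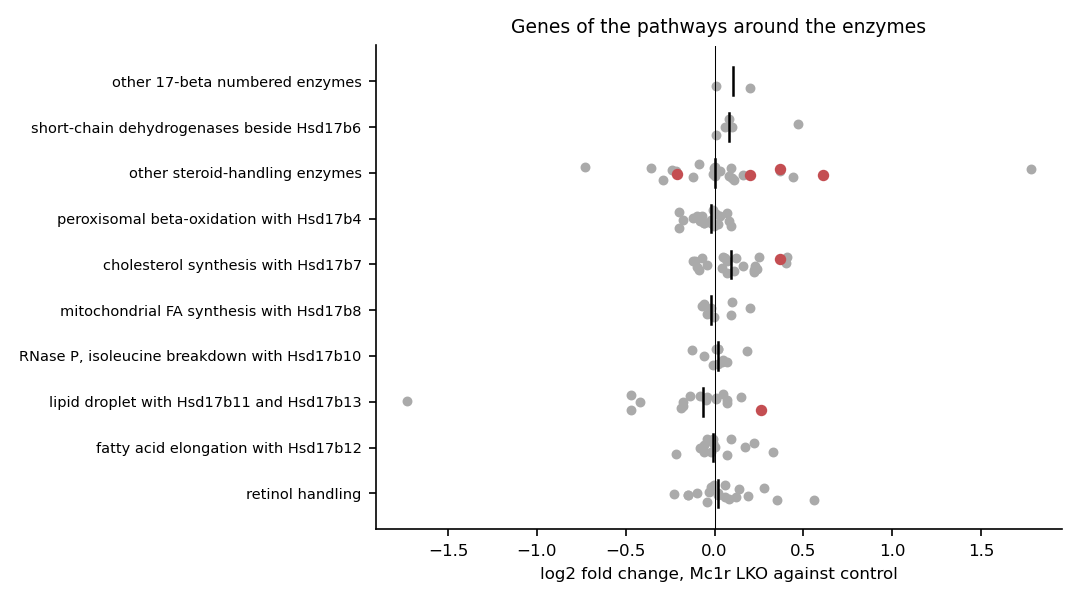
Log2 fold change (Mc1r LKO against control) of each tested gene of the 10 pathway lists, with 1 point per gene, red for genes past an unadjusted p under 0.05 and a black bar at the median of each list. The 6 red points are 4 Akr1c genes, Tm7sf2 and Plin5, and the other points are grey.

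The genes whose level followed Hsd17b6 most closely over the 8 livers were found by Pearson's r of log2 CPM among 13399 other tested genes. They were 1600012H06Rik (r = 0.95), Rnf152 (0.94), Slc38a10 (0.94), Zmynd8 (0.94) and Amer1 (0.93), and 19 genes had an r of at least 0.9. Rnf152 was at 19.9, 20.5, 21.1 and 36.2 CPM in control and 14.1, 14.5, 18.7 and 12.3 CPM in Mc1r LKO livers. As with Hsd17b6, its highest liver was control mouse 193, its lowest Mc1r LKO mouse 182, and the genotypes did not overlap. The log2 fold changes of these 5 genes ran from -0.72 for Rnf152 to -0.14 for 1600012H06Rik and are a description, since genes chosen for their likeness to Hsd17b6 take on part of its difference. The order at the top changed with the measure, as 0 of the 5 were again among the top 5 by Spearman's rho and 0 without control mouse 193. Their own values stayed high, with a rho of 0.88 to 0.95 and an r of 0.84 to 0.94 without mouse 193.

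With the mean of each genotype removed, the closest genes were Agap2 (r = 0.98), Gm8325 (0.97), 1600012H06Rik (0.97), Slc2a5 (0.96) and Ssc4d (0.95), and 1 gene was shared with the first 5. Among the 8 mice without removal of the means, Gm8325, with only 4 to 16 counts per mouse, had an r of -0.09 and Ssc4d of 0.25. Without control mouse 193 these were -0.47 and -0.09, and the r of Slc2a5 was 0.36 and of Agap2 0.64. The r of 1600012H06Rik was 0.99 within the controls and 0.94 within the Mc1r LKO mice, over 4 livers each.

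**Figure D5:**
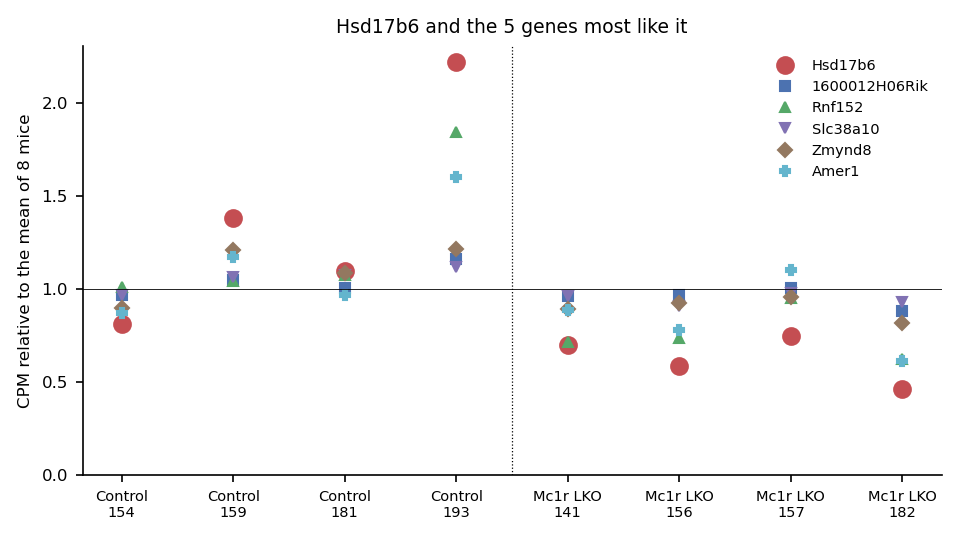
CPM of Hsd17b6 and of the 5 genes with the highest r to it, each divided by its mean over the 8 mice, with controls left and Mc1r LKO mice right of the dotted line. Control mouse 193 holds the highest point of every gene shown, and Hsd17b6 (large red points) spans more than the other 5.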

How the data were processed

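Liver RNA of 4 control and 4 Mc1r LKO mice was sequenced from stranded, polyadenylated libraries. The authors trimmed reads with Trim Galore 0.6.6, aligned them with STAR 2.7.6a and counted pairs by strand (option 2) with Subread 2.0.1 featureCounts, per the submitters' processing notes. They deposited 1 table of raw counts per gene and mouse. The table headers name an annotation of GRCm38 (Ensembl release 102), whereas the methods write GRCh38. The headers' build was used.

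The groups were taken from the sample labels. The deposited counts were passed through filterByExpr by group (minimum count 10, minimum total 15), TMM factors were computed, and edgeR 4.0.16 under R 4.3.3 fitted all 13400 remaining genes by quasi-likelihood (glmQLFit, glmQLFTest). Adjusted p-values follow Benjamini and Hochberg over that whole set. The fit compares the genotypes with no covariate, because the labels name no batch. CPM values are TMM-normalized, log2 CPM has a prior count of 2, and the common biological coefficient of variation was 0.209. Limits for a count of 0 (3 counts) cover counting error only. The p-values set the difference between genotypes against the spread between these mice, which the fit estimates partly from other genes. No mice of a genotype were alike within sampling noise, and total counts per mouse set the depth. On simulated counts with 200 changed genes the test called, at an adjusted p under 0.05, 67 of 99 at 2-fold, 88 of 96 at 4-fold and 13 of 13022 unchanged genes. Each gene was drawn on its own from the fitted dispersion, with no shift common to many genes of a mouse. These shares therefore check the code and do not give the power in these livers.

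The family and the gene lists were chosen with earlier results of these data known. Named genes are the 9 members, all genes of the lists of other 17-beta enzymes and of short-chain dehydrogenases, genes of other lists past an unadjusted p under 0.05 (at most 5 per list), genes within 200 kb of Hsd17b6, the 5 genes most like it by each of the 2 correlations, and markers. Hsd17b8 was found through its RefSeq synonym H2-Ke6. Symbols matched 55141 of 55487 identifiers. Sequences are RefSeq promoter windows (GRCm38.p6), and coding lengths are from GENCODE M21. Alternatives were DESeq2 1.42.0, limma-voom (limma 3.58.1), 3 other normalizations, 2 other filters, robust dispersion and left-out mice.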

Additional observations from a re-analysis of the deposited data

Results flagged for a closer look

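In 78 groups of 4 mice, 7 held a mouse whose gap to the nearest of the others, divided by the range of the group, was above Dixon's limit of 0.829. For independent groups not chosen by their values, chance gives about 1 in 20, or 3.9. These groups share the same mice, and some genes were chosen for following Hsd17b6, so the 7 cannot be judged against that rate. In Mc1r LKO mouse 182, Hsd17b2 was at 155 CPM (112 to 119 in the other 3), Rdh7 at 1252 CPM (946 to 974), Rdh16f2 at 40.7 CPM (15.8 to 18.4) and Gm8325 at 0.46 CPM (0.622 to 0.65). Gm8325 rested on few reads, with 9 counts in mouse 182 and 9, 10 and 16 in mice 141, 156 and 157. In control mouse 193, Hsd17b11 was at 281 CPM (234 to 239 in the other 3) and Rnf152 at 36.2 CPM (19.9 to 21.1). In control mouse 159, Rdh16f2 was at 27.1 CPM (12.3 to 14.8). Hsd17b6 itself was not among them in either genotype.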

How the results depend on the processing

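Hsd17b6 kept its direction under all 17 alternatives, with log2 fold changes from -1.32 to -0.80, which were also the ends of the range over the 8 left-out mice. This is a description, because Hsd17b6 was chosen for its difference in these mice. Its genotypes did not overlap, so leaving out mice could not reverse the direction. Of 136 values of the other 8 members, 126 kept their direction, the largest size was 0.35 and the lowest adjusted p 0.723, so that 0 members passed in any fit. The 10 reversals were small: with library size alone Hsd17b13 was at -0.01, and with 1 mouse left out the values ran from -0.02 to 0.16 for Hsd17b2, -0.04 to 0.16 for Hsd17b7, -2.6e-03 to 0.35 for Hsd17b8, -0.02 to 0.18 for Hsd17b10 and -0.05 to 0.17 for Hsd17b13. Without mice 159 and 182 together, 1375 of all genes and 24 of the pathway genes passed an unadjusted p under 0.05, against 901 and 6. With 1 mouse left out the pathway count ran from 4 to 18, the latter without mouse 182. After adjustment DESeq2 called 17 genes and the fit with no filter beyond 1 count called 1, against 0. Without mouse 182, an alternative added after seeing the data, Rdh7 was at -3.0e-03, Sdr9c7 at -0.21 and Akr1c6 at -0.14, against 0.10, 0.06 and 0.01. The cause of these shifts was not tested. Akr1c12, Akr1c19, Naca and Baz2a kept their unadjusted call in 17 of 17 alternatives, Tm7sf2 in 16, Plin5 in 13, Akr1c14 in 9 and Akr1c13 in 8. No paired analysis was possible because the mouse numbers are not shared between the genotypes. The counts of Hsd17b8, 13 to 38 per mouse, leave a wide interval.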
